A study of Mus musculus with 4 samples.

Results

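The UDP-glucuronosyltransferases (Ugt1a, Ugt2), glutathione S-transferases (Gsta, Gstm, Gstp, Gstt, Gsto, Gstk), sulfotransferases (Sult) and carboxylesterases (Ces) were followed as 10 enzyme families across the libraries and cell states of the mouse intestinal epithelium. Members were taken by the start of the gene symbol alone, with no measured value used, which gave 69 of the 25289 genes with a column in the deposited files. There were 7 members of Ugt1a, 9 of Ugt2, 4 of Gsta, 6 of Gstm, 2 of Gstp, 4 of Gstt, 2 of Gsto, 1 of Gstk, 17 of Sult and 17 of Ces. The carboxylesterases hydrolyse esters and amides and are usually placed in phase I rather than phase II, so the set is one of conjugating enzymes plus a hydrolase family.

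Conjugating enzymes attach glucuronic acid, glutathione or sulfate to drugs, dietary compounds, steroids, bile acids and products of lipid oxidation, which makes them more water-soluble and ready for export. Absorptive enterocytes meet swallowed compounds first and are known to carry much of this activity, together with carboxylesterases that cleave ester drugs and acylglycerols in the endoplasmic reticulum. Several of these enzymes are also known to differ between the sexes in mouse liver.

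Messenger RNA was counted with inDrop v2, a droplet method that reads the 3' ends of transcripts cell by cell. The cells came from the small intestine of adult C57BL/6J mice and had been sorted as EpCAM+CD45-TER119-DAPI-, at 5000 per condition. All mice carried loxP-flanked alleles of the Hippo pathway kinases Lats1 and Lats2, received intraperitoneal tamoxifen (2 mg) and were examined on day 7. The 2 control libraries had the genotype Lats1fl/fl Lats2fl/fl without a Cre, and the 2 Lats-deleted libraries had Lrig1-CreERT2 in addition, a tamoxifen-inducible recombinase driven from Lrig1, a gene of intestinal stem and progenitor cells. Neither the animal behind each library nor the stretch of small intestine is given in the labels, so p-values measure only the spread between these libraries.

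Barcodes counted as cells from 1000 counts and 300 genes upward, provided that no more than 30% of the counts were mitochondrially encoded, which left 774 and 515 cells in control libraries 1 and 2 and 726 and 1289 cells in Lats-deleted libraries 1 and 2. The summed counts of these cells were 1603796, 1228504, 3562565 and 5826856. Median counts per cell (1708 and 1995 against 3715.5 and 3848) and median mitochondrially encoded shares (9.55% and 6.84% against 3.64% and 3.90%) separated the groups. Pairs of libraries shared 4 to 12 barcodes among kept cells. Levels are given as counts per 1000000 counts (CPM). Lats1 was at 23.4 and 35.2 CPM in the controls, against 6.93 and 9.26 CPM with Cre. Lats2 was at 9.20 and 10.6 against 27.2 and 20.1 CPM, and which exons were deleted is not in the labels. The female-expressed Xist was at 10.6 and 7.03 CPM in the controls, against 585 and 478 CPM in the Lats-deleted ones, and 4 Y-linked genes summed to 106 and 117 against 31.8 and 24.04 CPM. Sex and genotype can therefore not be told apart for the members below. Enterocyte-like cells, named from a list of 14 markers, made up 81.8% and 78.4% of the control cells but 5.23% and 1.63% of the Lats-deleted cells. The summed level of that list was 27938 and 27989 CPM in the controls and 2327 and 1141 CPM in the Lats-deleted ones, with no marker at 0 in any library.

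The 69 members together held 15975 and 13426 CPM in the controls and 3598 and 7513 CPM after Lats deletion. Levels of single genes in the sum of all kept cells are CPM on library sizes scaled with TMM (trimmed mean of M values), and levels of families, clusters and cell classes use the plain total of counts. The filter on low counts was passed by 42 members, 28 of them through both groups and 14 through the control libraries alone. A member of the latter kind is low in a Lats-deleted library by that choice, so counts of calls that hold such members are descriptions. The other 27 members had at most 27 counts over the 4 libraries and were not tested. At an adjusted p under 0.05 in edgeR's quasi-likelihood test (Benjamini-Hochberg over all 12561 genes tested), 34 of the 42 were lower in the Lats-deleted libraries, where 15.5% of all genes were called lower. One member, Gsta3, was higher, where 15.3% of all genes were. The remaining 7 did not pass (Gsta1, Gsta4, Gstm2, Gstm5, Gsto1, Sult1a1 and Sult1c2). Of the 28 members that passed the filter through both groups, 21 were lower, 1 was higher and 6 were not called. The median log2 change of the tested members was -3.36, beside 0.05 over all genes tested, and plain library sizes shifted the latter to 0.30. A sum over all kept cells cannot tell fewer cells of a type from less RNA per cell. The share of enterocyte-like cells is lower where these members are lower, and members are compared within that class further on.

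**Figure D1:**
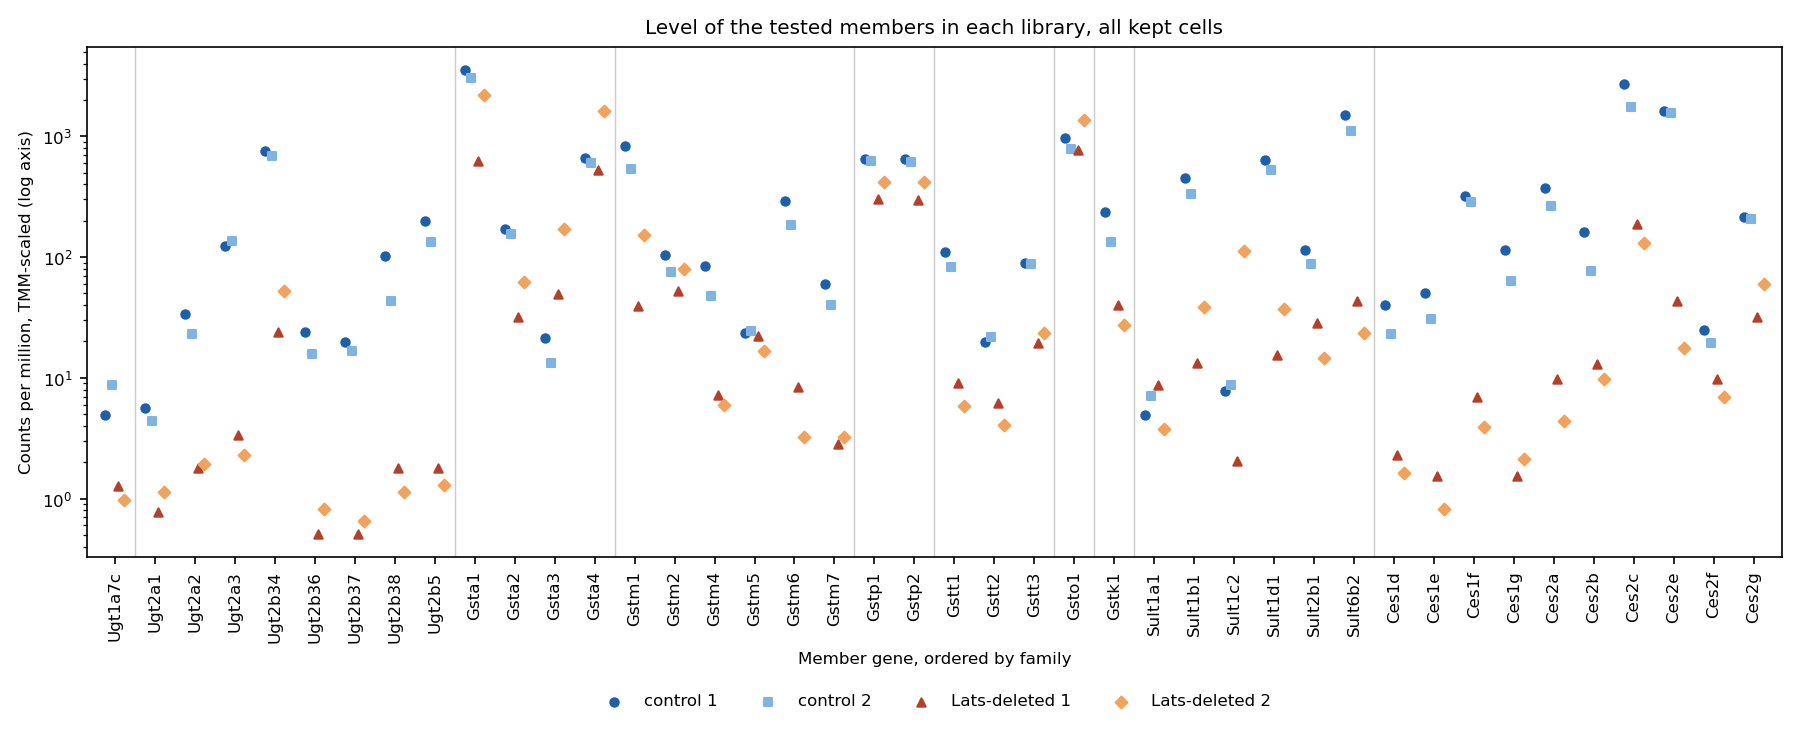
Level of each of the 42 tested members in each of the 4 libraries, summed over all kept cells, in TMM-scaled CPM on a log axis, with genes ordered by family. Blue points (controls) lie above red and orange points (Lats-deleted) for most genes, while Gsta3 shows the opposite order and Gsta4, Gsto1, Gstm2, Sult1a1 and Sult1c2 overlap.

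The UDP-glucuronosyltransferases use UDP-glucuronic acid as the donor. Ugt2b5 (ENSMUSG00000054630.7, chromosome 5, 87124960 to 87140318 on GRCm38) was at 200.4 and 134.5 CPM in controls 1 and 2 but 1.80 and 1.299 CPM in the Lats-deleted pair. The groups lay far apart. Its log2 change was -6.76 (SE 0.359, adjusted p = 0.000183), a 109-fold lower level. Ugt2a3 (chromosome 5, 87324972 to 87337195) was at 124 and 135 CPM against 3.34 and 2.27 CPM, and its log2 change was -5.55 (SE 0.284, adjusted p = 0.000183). Ugt2b34 (chromosome 5, 86889767 to 86906937) was at 754 and 693 CPM against 23.9 and 52.6 CPM, a log2 change of -4.23 (SE 0.414, adjusted p = 0.000651; -4.94 without Lats-deleted library 2). Lats-deleted library 2 was the higher of its group and still far below both controls. The 8 tested members of Ugt2 were called lower, where 15.5% of all genes were, with log2 changes from -6.76 to -2.32. But 7 of them, Ugt2b34 being the other, passed the filter through the controls alone. The summed family was at 1050 ± 87.8 CPM in the controls and 52.9 ± 19.2 CPM after Lats deletion (SD, n = 2 each), a ratio of 19.9. Ugt2a1 and Ugt2a2 share their last 1774 transcript bases, which leaves their 3' counts uncertain.

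The Ugt1a enzymes, which include the bilirubin-conjugating Ugt1a1, are spliced from alternative first exons onto a common 3' part on chromosome 1 (88055388 to 88220002). Pairs of them shared up to 1427 identical last bases, and the whole family held only 11.85 and 11.4 CPM in the controls and 4.49 and 2.75 CPM after Lats deletion. A 3' assay cannot separate these isoforms with certainty. Ugt1a7c, which passed the filter through the controls alone, was the one tested member, at 4.96 and 8.79 against 1.28 and 0.9745 CPM (log2 change -2.57, adjusted p = 0.0143). That call was lost when control library 1 (adjusted p = 0.0804), control library 2 (0.199) or Lats-deleted library 2 (0.0718) was left out. Ugt1a1 was at 2.12 and 0.879 against 0.513 and 0.325 CPM and Ugt1a6a at 0.708 and 1.76 against 1.28 and 1.299 CPM, both untested.

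The sulfotransferases transfer sulfate from the donor PAPS. Sult6b2 (chromosome 6, 142785204 to 142804502) was at 1494 and 1099 CPM in the controls, against 43.6 and 23.7 CPM after Lats deletion, with no overlap. Its log2 change was -5.27 (SE 0.402, adjusted p = 0.000306). Sult1d1 (chromosome 5, 87554645 to 87569027), which sulfates catecholamines in the mouse, was at 631.5 and 530.0 CPM against 15.4 and 36.9 CPM, a log2 change of -4.46 (SE 0.445, adjusted p = 0.000712). Sult1b1 (chromosome 5, 87513339 to 87538195), known for sulfation of thyroid hormone and phenols, was at 453 and 335 CPM against 13.3 and 38.3 CPM, a log2 change of -3.91 (SE 0.502, adjusted p = 0.00192). In both genes Lats-deleted library 2 was the higher of its group and still far below the controls, and the log2 changes without it were -5.25 for Sult1d1 and -4.90 for Sult1b1. The cholesterol sulfotransferase Sult2b1 was lower as well (log2 change -2.26, adjusted p = 0.00407, and 0.0675 without control library 1). Sult1c2 ran in the other direction in 1 library, at 7.79 and 8.79 CPM in the controls, 2.05 CPM in Lats-deleted library 1 and 113 CPM in Lats-deleted library 2 (adjusted p = 0.204). Sult1a1 was at 4.96 and 7.03 against 8.72 and 3.74 CPM, with overlapping groups. Of the 17 Sult members 11 were too low to test, among them the estrogen sulfotransferase Sult1e1 and all 5 members of Sult2a, and the family sum was 2156 ± 329 CPM in the controls and 190.1 ± 83.1 CPM after Lats deletion (SD, n = 2 each).

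The glutathione S-transferases did not move as 1 block. Of the mu class, Gstm1 (chromosome 3, 108012255 to 108017973) was at 829 and 534 CPM against 39.2 and 151 CPM, and Gstm6 (chromosome 3, 107938847 to 107943749) at 291 and 185 CPM against 8.47 and 3.25 CPM. Their log2 changes were -2.83 (SE 0.613, adjusted p = 0.0142) and -5.40 (SE 0.487, adjusted p = 0.000506), and neither gene's groups overlapped. The Gstm1 call was lost without control library 1 (adjusted p = 0.134) and without control library 2 (0.072). Its log2 change was -4.13 without Lats-deleted library 2 and -2.17 without library 1, and that of Gstm6, which passed the filter through the controls alone, was -6.18 without Lats-deleted library 1. Gstm4 and Gstm7 were lower too, whereas Gstm2 was at 104 and 74.7 against 52.9 and 78.9 CPM and Gstm5 at 23.4 and 24.6 against 22.3 and 16.7 CPM, neither past the threshold. The theta class, which acts on small halogenated compounds, fell in all 3 tested members, with Gstt1 at 110 and 83.5 against 8.98 and 5.85 CPM (log2 change -3.73, adjusted p = 0.000388). Gstt3 was at 89.9 and 87.0 against 19.2 and 23.4 CPM (log2 change -2.05, adjusted p = 0.000987). Gstt2 was at 19.8 and 22.0 against 6.16 and 4.06 CPM (log2 change -2.05, adjusted p = 0.00707, and 0.0652 without either control library). Gstk1, the kappa-class enzyme of mitochondria and peroxisomes, was at 237 and 134 against 39.8 and 27.45 CPM (log2 change -2.47, SE 0.344, adjusted p = 0.00258).

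The pi class had smaller fitted changes. Gstp1 (chromosome 19, 4035407 to 4037985) was at 649 and 623 CPM in the controls, against 300.1 and 418 CPM after Lats deletion, a log2 change of -0.83 (SE 0.247, adjusted p = 0.045). Leaving out control library 1 or 2 gave 0.306 and 0.259, and plain library sizes 0.102. Gstp2 gave almost the same numbers (log2 change -0.82, adjusted p = 0.0461). The last 369 transcript bases of the 2 genes are identical, and their counts were equal in 97.7% of the 1935 cells with a count of either. They are treated as a single measurement, although both stand in the count above.

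In the alpha and omega classes most members did not pass. Gsta1 (chromosome 9, 78230656 to 78242684) was at 3530 and 3033 CPM in the controls, 627.5 CPM in Lats-deleted library 1 and 2200 CPM in Lats-deleted library 2. Both Lats-deleted libraries lay below the controls but far apart from each other, and the log2 change of -1.21 (SE 0.535) did not pass (adjusted p = 0.133). It was called lower with DESeq2 (adjusted p = 0.0418). The log2 change of Gsta1 was -0.58 without Lats-deleted library 1 and -2.40 without Lats-deleted library 2. A fit with 1 Lats-deleted library does not measure the spread between the 2, so only the effect size is given here. Gsta2 (chromosome 9, 78331018 to 78355788) was at 171 and 156 against 32.1 and 61.9 CPM and was called lower (log2 change -1.79, adjusted p = 0.00759; 0.101 and 0.0712 without control library 1 or 2). Gsta4 (chromosome 9, 78182774 to 78209349), the enzyme for the lipid peroxidation product 4-hydroxynonenal, was at 662 and 600.3 CPM against 526 and 1615 CPM. Its controls lay between the 2 Lats-deleted libraries, with a log2 change of 0.76 (95% interval -0.40 to 1.92, adjusted p = 0.278). The change was -0.28 without Lats-deleted library 2 and 1.36 without Lats-deleted library 1. Gsto1 (chromosome 19, 47854970 to 47864790), an omega-class enzyme that reduces dehydroascorbate, was at 960 and 791 CPM against 771 and 1362 CPM (log2 change 0.28, 95% interval -0.47 to 1.04, adjusted p = 0.539). Its change was -0.20 without Lats-deleted library 2 and 0.64 without Lats-deleted library 1. Gsto2 was at 1.80 CPM or less in every library.

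Gsta3 (chromosome 1, 21240589 to 21265661), the mouse enzyme known for conjugating the epoxide of aflatoxin, was the 1 member called higher. It was at 21.2 and 13.2 CPM in the controls, against 49.0 and 171 CPM after Lats deletion. The groups did not overlap, and the 2 Lats-deleted libraries differed from each other more than Lats-deleted library 1 differed from control library 1. The log2 change was 2.66 (SE 0.633, adjusted p = 0.0202). The call was lost without control library 1 and without control library 2. The log2 change was 1.46 without Lats-deleted library 2 and 3.28 without Lats-deleted library 1. Without the stromal-like and stomach-like clusters it was 2.26 (adjusted p = 0.008).

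The carboxylesterases were lower in the 10 tested members, where 15.5% of all genes were called lower. Of these members 3 (Ces1d, Ces1e and Ces1g) passed the filter through the controls alone. Ces2c (chromosome 8, 104847068 to 104854483), a mouse counterpart of the main human intestinal carboxylesterase CES2, was at 2725 and 1734 CPM in the controls, against 188 and 129.9 CPM after Lats deletion. Its log2 change was -3.81 (SE 0.349, adjusted p = 0.000527). Ces2e (chromosome 8, 104926260 to 104934672) was at 1619 and 1557 CPM against 43.4 and 17.7 CPM, a log2 change of -5.71 (SE 0.485, adjusted p = 0.000418). The fitted levels were 14.0-fold and 52.4-fold lower, and the difference between the 2 genes was not tested. Ces2a was at 372 and 266 against 9.75 and 4.38 CPM (log2 change -5.54, adjusted p = 0.000331). Without Lats-deleted library 1 the log2 change was -6.48 for Ces2e and -6.17 for Ces2a. Of the Ces1 members, Ces1f was at 322 and 286.5 against 6.93 and 3.90 CPM (log2 change -5.84, SE 0.338, adjusted p = 0.000186) and Ces1g at 115 and 63.3 against 1.54 and 2.11 CPM (log2 change -5.56, adjusted p = 0.000306). Ces1d, the triacylglycerol hydrolase, and Ces1e were lower too, with log2 changes of -4.03 and -5.14. Ces2f (-1.42) and Ces2g (-2.20) had the smallest changes of the family, and their calls were lost without control library 1 (adjusted p = 0.179 and 0.0568), the call for Ces2f also without control library 2 (0.0789). The call for Ugt2a1 was lost without either control library (adjusted p = 0.257 and 0.146). The summed family went from 4470 ± 727 to 299.5 ± 62.4 CPM (SD, n = 2 each), 14.9-fold lower.

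The make-up of the set changed with these shifts. Carboxylesterases supplied 31.2% and 29.5% of the members' counts in the controls but 9.55% and 3.40% in the Lats-deleted libraries. Sulfotransferases went from 14.95% and 14.3% to 3.65% and 3.31%, and Ugt2 from 6.96% and 7.36% to 1.09% and 0.884%. The alpha-class transferases made up a larger share, from 24.2% and 26.2% to 37.5% and 56.9%, and Gsto from 5.30% and 5.46% to 23.5% and 19.2%. Their summed levels overlapped between the groups in Gsta and lay close in Lats-deleted library 1 for Gsto: Gsta held 3861 and 3521 CPM against 1351 and 4277 CPM, and Gsto 846 and 733 against 845.5 and 1441 CPM.

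Most members lie in tandem arrays, and neighbours up to 1000000 bases apart were taken as 1 locus. The counts of calls below stand beside 15.5% of all 12561 genes tested that were called lower. On chromosome 5 (86889767 to 87591594) the 9 Ugt2 members and Sult1b1, Sult1d1 and Sult1e1 sit together, and the 10 tested genes there were lower, 7 of them having passed the filter through the controls alone. The Ces1 array with Ces5a (chromosome 8, 93020214 to 93535830) had 4 of 4 tested genes lower, 3 of them through that filter route, and the Ces2 to Ces4 array (104734003 to 105150109) 6 of 6. The Gstm array on chromosome 3 (107895821 to 108044894) was mixed, with 4 of 6 lower (2 of these, Gstm6 and Gstm7, by the same route) and 2 not called. So was the Gsta array on chromosome 9 (78182774 to 78355788), with 1 of 3 lower, while Gsta3 lies apart from it on chromosome 1.

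Promoter sequence (RefSeq, GRCm38.p6, 250 bases before to 50 after the start) was at hand for 60 of the 69 members and was searched on both strands for 2 motifs. TGACNNNGC, the core of the antioxidant response element bound by NRF2, stood in 3 of 70 member promoters (4.29%) and in 12.4% of all 32851 promoters. GTTAAT, part of the site of the intestinal and hepatic factor HNF1, stood in 12 of 70 (17.1%) and in 7.10% of all promoters. A match describes letters only. The 3 members with TGACNNNGC are shown because they moved differently in the sum of all kept cells, Gsta3 called higher, Gstm7 lower and Gstm5 not called. Capitals mark the match, and each stretch is written 5' to 3' on the gene's strand.

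Gsta3, chr1:21240439-21240497, plus strand: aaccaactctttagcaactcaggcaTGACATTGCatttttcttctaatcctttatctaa
Gstm5, chr3:107895787-107895845, plus strand: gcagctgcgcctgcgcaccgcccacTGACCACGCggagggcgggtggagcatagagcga
Gstm7, chr3:107931710-107931768, minus strand: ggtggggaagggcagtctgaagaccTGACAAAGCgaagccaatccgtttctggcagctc

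Of the 12 members with GTTAAT, 4 were tested: Gsta3, Sult1a1, Sult1d1 and Ugt2a3. The matches of Gsta3, Sult1d1 and Ugt2a3 are shown for 1 member that was higher and 2 that were lower, and the capitals ATTAAC are the motif read on the other strand. The Gsta3 stretch overlaps the one above, and the Ugt2a3 promoter holds a further copy just downstream, in lower case here.

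Gsta3, chr1:21240411-21240466, plus strand: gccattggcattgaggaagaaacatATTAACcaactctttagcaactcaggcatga
Sult1d1, chr5:87569055-87569110, minus strand: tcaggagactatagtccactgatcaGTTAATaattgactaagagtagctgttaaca
Ugt2a3, chr5:87337219-87337274, minus strand: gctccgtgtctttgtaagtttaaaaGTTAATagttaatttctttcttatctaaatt

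Within the control libraries the families differed between cell states. Clusters were made without the member genes, but they rest on the same cells, so the following levels are descriptions with no test. Cluster 9 of the controls (82 and 65 cells), led by Gvin1, Gm4070, Cps1, Aldh1b1 and the tuft cell gene Trpm5, carried no name by the marker rule. The best match of cluster 9 was the stem list, with 3 of its markers raised. Cluster 9 held only 3344 and 3271 CPM of all members, against 16734 and 14800 CPM in enterocyte-like cluster 0, led by Ccl25 and Reg1. Enterocyte-like cluster 3, led by Pck1 and Lct, held 19061 and 19829 CPM. Enterocyte-like cluster 6, led by Ada, Slc28a2 and Apoa4, held 21878 and 16739 CPM. Cluster 11, led by goblet genes (Zg16, Muc2, Tff3) and Paneth genes (Defa24, Lyz1, Defa17), was low, at 4969 and 3402 CPM.

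Single families had separate courses over these clusters. Gsta1 was at 69.4 and 55.5 CPM in cluster 9, at 4545 and 3807 CPM in cluster 0, at 3982 and 4030 CPM in cluster 3 and at 1616 and 1257 CPM in cluster 6. It was thus lower in the Apoa4-led enterocytes than in the other enterocyte-like clusters in both libraries. Ces2c ran the other way at that end, from 173.5 and 80.2 CPM in cluster 9 over 1296 and 1297 CPM in cluster 0 and 2582 and 2747 CPM in cluster 3 to 6530 and 3853 CPM in cluster 6. Barcodes under 200 counts in the same libraries held Ces2c at 1450 and 1615 CPM, above its levels in clusters 9 and 0. They held Gsta1 at 1967 and 2047 CPM, above its levels in clusters 9 and 6. The part of RNA from outside the cells was not tested. Gstk1 was at 101 and 74.5 CPM in cluster 0, 173 and 148 CPM in cluster 3 and 703 and 535 CPM in cluster 6. Ugt2b38 stood at 12.2 and 10.1 CPM in cluster 0 and at 332 and 205 CPM in cluster 6, and Ces2b at 42.5 and 56.4 against 523.5 and 303 CPM. Gsto1, Sult2b1 and Sult6b2 were also at their highest among the enterocyte-like clusters in cluster 6. Ces2e showed no such order among enterocyte-like clusters, at 1606 and 1597, 1893 and 2649, and 1379 and 1249 CPM in clusters 0, 3 and 6, nor did Ugt2b34, at 723 to 885 CPM in all 8 values. Cluster 9 was not the lowest for every member. The pi-class gene Gstp1 stood at 503 and 759 CPM there, and Gstm5 at 28.9 and 67.9 CPM, above its 3.82 and 8.92 CPM in cluster 6. The Gstm5 levels rest on very few counts, since the cluster 6 cells held 261724 and 112130 counts of all genes. Gsta4 was higher in cluster 11 (849 and 1075 CPM) than in the enterocyte-like clusters of the controls (428 to 692 CPM), whereas Gstk1 was at 8.16 and 8.08 CPM there.

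**Figure D2:**
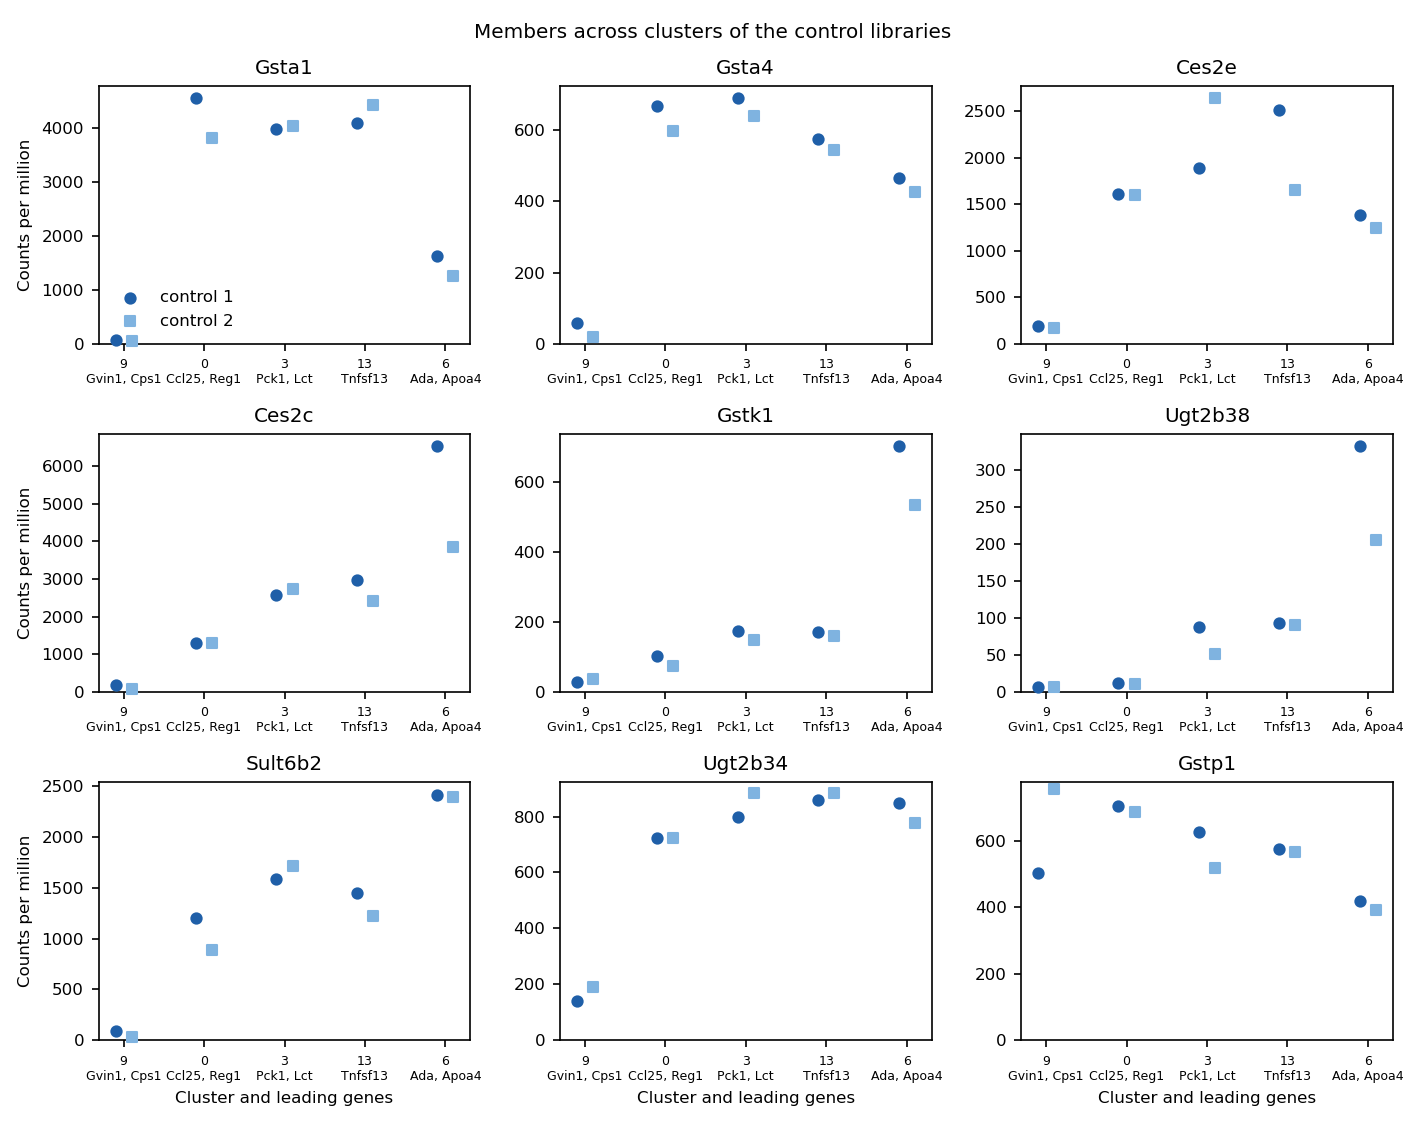
Level of 9 members in 5 clusters of the 2 control libraries, in CPM of the cluster's total, with the leading genes of each cluster under its number. Gsta1 is lower in cluster 6 than in the other enterocyte-like clusters and Ces2c, Gstk1, Ugt2b38 and Sult6b2 stand highest in cluster 6, while Gstp1 is already high in cluster 9.

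The Lats-deleted cells outside the enterocyte-like class fell into 8 clusters of at least 20 cells, and the Ugt2, Ces and Sult sums were low in most of them. Cluster 2, named regenerative-like (256 and 122 cells), held 16.7 and 22.0 CPM of Ugt2, 133 and 103 CPM of Ces and 65.4 and 40.4 CPM of Sult in Lats-deleted libraries 1 and 2. In the same cells Gsta stood at 940 and 1059 CPM and Gsto1 at 982.5 and 994.5 CPM, the latter within the range of the control enterocyte-like clusters (662 to 1589 CPM). Cluster 1, led by Cald1 and Krt14 and unnamed (186 and 232 cells), was alike, with 4.28 and 44.4 CPM of Ugt2 and 772 and 791 CPM of Gsto1. Ces2e was at most 23.5 CPM in any of these clusters and libraries, where the control enterocyte-like clusters held 1249 to 2649 CPM. Barcodes under 200 counts in the Lats-deleted libraries held 1576 and 4799 CPM of Gsta and 848 and 1547 CPM of Gsto1. The Gsta level of cluster 2 and the Gsto1 level of cluster 1 lay below these in both libraries. Gsto1 in cluster 2 lay below them in library 2. The part of RNA from outside the cells was not tested.

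Ces2c and Ces2e came apart in cluster 10. These cells (46 and 82), led by Clca4a, Reg3b and Krt20, held Ces2c at 1981 and 1281 CPM in libraries 1 and 2, near the level of control cluster 0 and above that of low-count barcodes of the same libraries (490 and 189 CPM). Ces2e was at 23.5 and 22.6 CPM, Ces2a at 0 and 25.4 CPM and Sult6b2 at 89.2 and 87.6 CPM in the same cells. Gsta1 was at 3375 and 2222 CPM and Gsta4 at 1901 and 1979 CPM, the latter above every control enterocyte-like cluster. Low-count barcodes of library 2 held more Gsta1 than these cells (2748 CPM). Gstm6 was not counted in these cells in either library.

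Stomach-like cluster 5, all 267 cells of which came from Lats-deleted library 2, held the highest alpha-class levels. Gsta1 was at 6683 CPM, Gsta4 at 3978 CPM, Gsta3 at 391 CPM and Gsto1 at 2970 CPM, and Gstm1 (443 CPM) and Gstm2 (176 CPM) were also high for Lats-deleted cells. Sult1c2 was at 326 CPM there, at 127 CPM in cluster 4 (led by Cd59b, with Cldn18 among its leading genes) and at 129 CPM in cluster 7 (led by Pgc, histone genes and Muc6) of the same library. In Lats-deleted library 1 it was at most 7.04 CPM in any cluster. Clusters 4 and 7 carried no name, and their best match was the cycling progenitor list, with 12 of its markers raised in each. The stomach marker list summed to 9899 CPM in Lats-deleted library 2 and to 87.0 CPM in library 1, beside 89.8 CPM or less in the controls. Leaving out the stromal-like and stomach-like clusters together, with clusters 4 and 7 kept, changed the values over all kept cells, and the part of the stomach-like cells alone was not tested. Gsta1 was then called lower (log2 change -1.87, adjusted p = 0.00191), and Gsta4 and Gsto1 came to 0.34 and 0.04 (adjusted p = 0.435 and 0.904). Gsta4 still stood at 1061 and 1524 CPM in cluster 8, led by Wfdc18 and Duox2, in both Lats-deleted libraries. The stromal-like cluster 12, with 71 of its 79 cells in Lats-deleted library 1, held Sult1a1 at 137.5 CPM and Gstm1 at 487 CPM and little of Gsta1 (15.9 CPM).

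**Figure D3:**
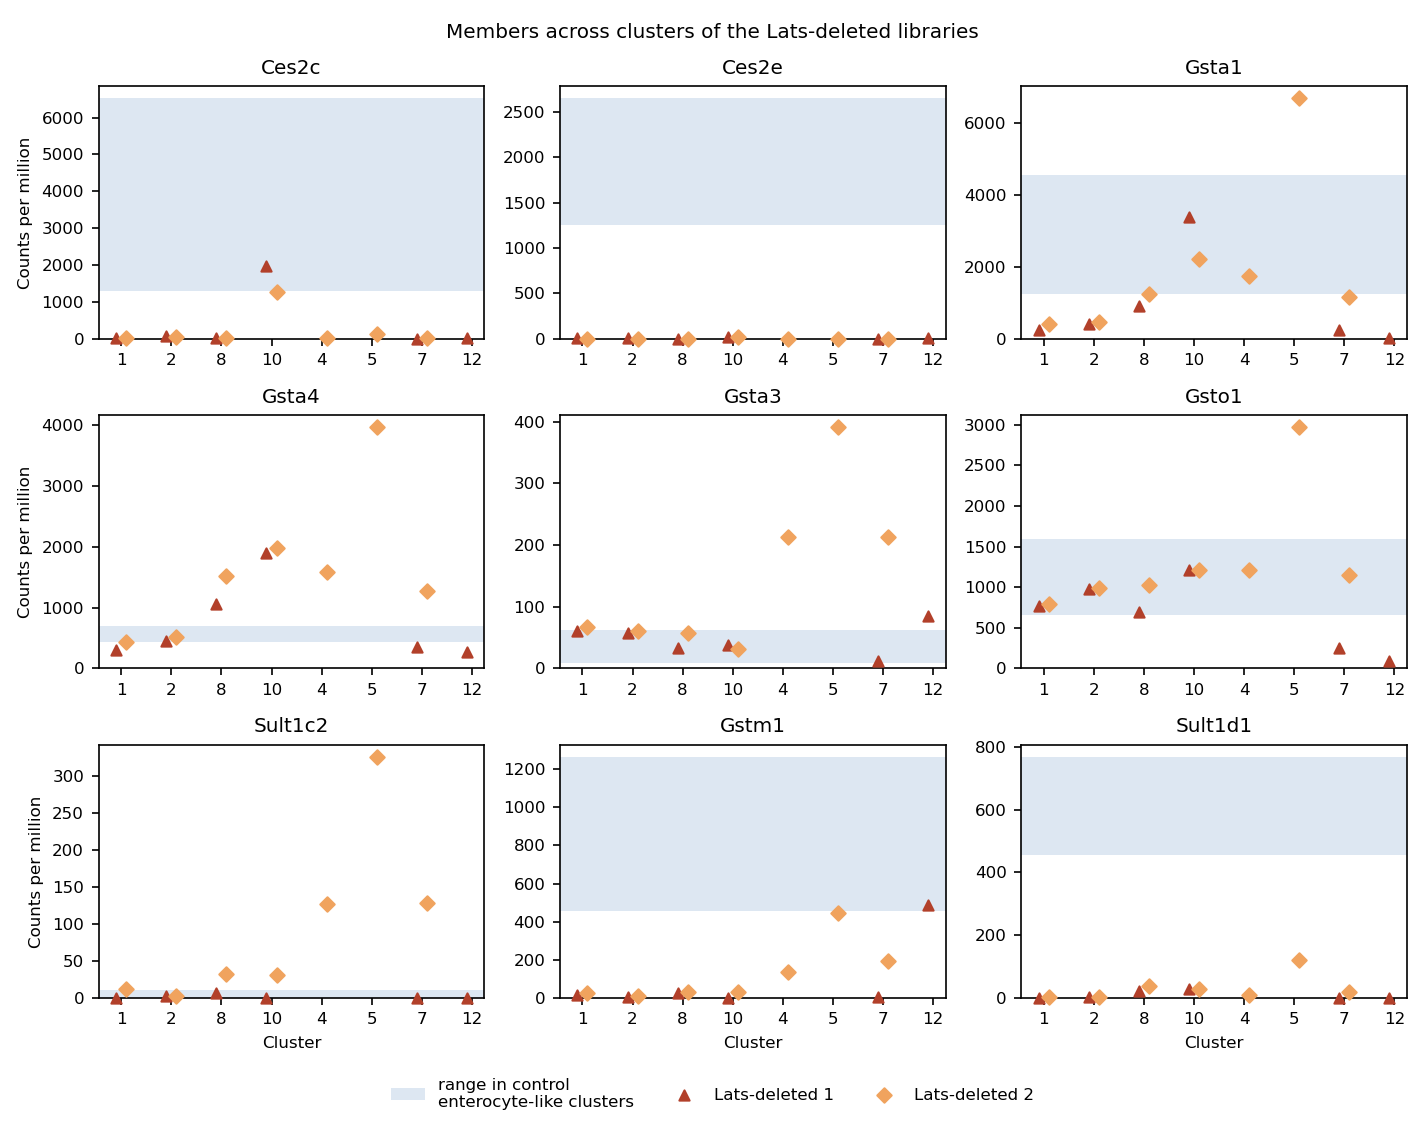
Level of 9 members in clusters of the 2 Lats-deleted libraries (only cluster and library pairs with at least 20 cells), in CPM, with the blue band spanning the control values of the 4 enterocyte-like clusters. Ces2c lies in the band in library 1 of cluster 10 and just under it in library 2, Ces2e reaches it in none, Gsta4 lies above the band in clusters 4, 5, 8 and 10 and in library 2 of cluster 7, and Sult1c2 is raised in clusters 4, 5 and 7 of library 2.

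**Figure D4:**
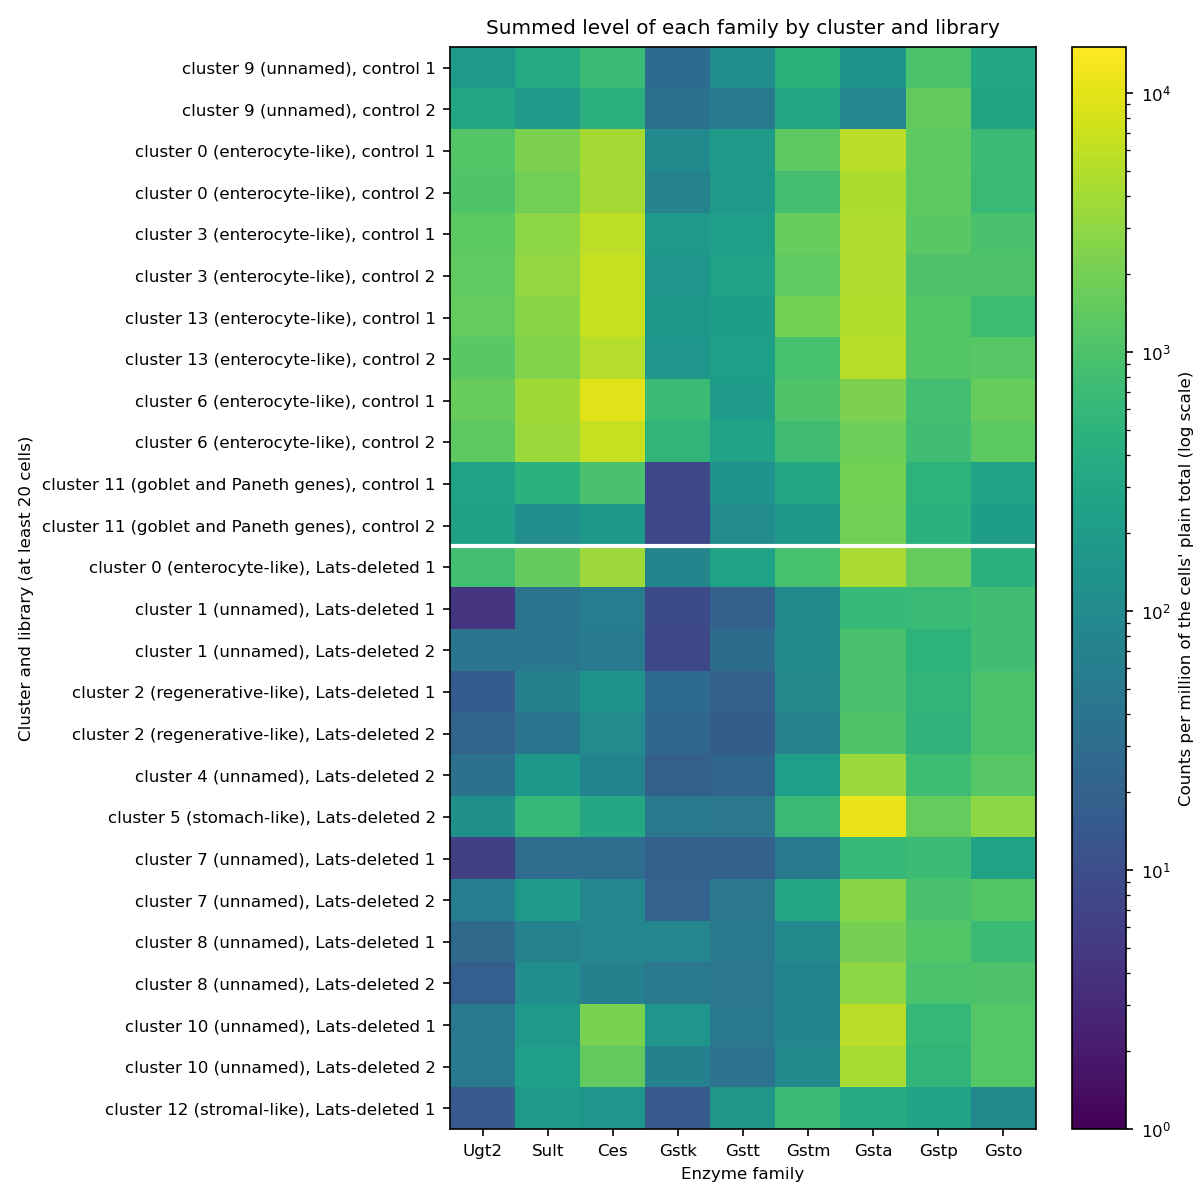
Summed level of 9 families in each cluster and library with at least 20 cells, as colour on a log scale of CPM, control libraries above the white line and Lats-deleted libraries below it. Ugt2, Sult and Ces are mostly darker below the line, except in enterocyte-like cluster 0, for Ces in cluster 10 and for Sult in cluster 5, whereas Gsta, Gstp and Gsto stay bright outside stromal-like cluster 12.

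RNA outside cells can reach any droplet, and barcodes with few counts show its make-up, together with that of broken cells. Barcodes under 200 counts held 10036 and 11612 CPM of all members in the controls and 4945 and 8162 CPM after Lats deletion. Ces2e was at 744 and 967 CPM there against 159 and 17.6 CPM. In clusters of at least 20 Lats-deleted cells outside the enterocyte-like class, Ces2e lay below the level of these droplets in library 1 (at most 23.5 CPM) and in library 2 (at most 2.98 CPM), except in cluster 10 of library 2 (22.6 CPM). The Ces2e level of control cluster 9 (191 and 167 CPM) and the Ugt2b34 level of control cluster 11 (204 and 210 CPM) lie below that of the low droplets of their own libraries as well (479 and 836 CPM for Ugt2b34), and are not read as expression.

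The few Lats-deleted cells that were enterocyte-like allowed a comparison within 1 cell class. There were 38 and 21 of them in Lats-deleted libraries 1 and 2, beside 633 and 404 in the control libraries. Whether the Lats1 and Lats2 alleles were deleted in these cells was not tested, so the comparison is one of libraries within the class. Ces2e was at 1711 and 1871 CPM in the controls, against 1564 and 1691 CPM after Lats deletion, a log2 change of -0.18 (95% interval -0.57 to 0.22). Sult6b2 was at 1600 and 1335 against 1300 and 1836 CPM (0.03, -0.37 to 0.44) and Gsta1 at 3725 and 3596 against 2981 and 5781 CPM (0.19, -0.20 to 0.58). For Ces2e and Sult6b2 the lower bound of the interval lies far above the change fitted in all kept cells (-5.71 and -5.27). Cells entered this class by their expression of other genes, and it was named from enterocyte markers, so it was chosen for enterocyte-like RNA. The cause of the lower levels over all kept cells was not tested. Gstm1 was the 1 member of 36 that passed, at 849 and 602 CPM against 296 and 345 CPM, with no overlap (log2 change -1.23, 95% interval -1.76 to -0.71, adjusted p = 0.00475 in edgeR's quasi-likelihood test). Over all 5887 genes tested, 0.136% were called lower. The Gstm1 call was lost with DESeq2 (adjusted p = 0.771) and without control library 1 (1.0).

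Other members of the class had lower values without passing. Ces2c was at 2908 and 2090 against 1564 and 1545 CPM (log2 change -0.72, 95% interval -1.13 to -0.32, adjusted p = 0.133). Ugt2b5 was at 216 and 162 against 63.4 and 90.9 CPM (-1.39, -2.22 to -0.56, adjusted p = 0.191), and Sult1d1 at 638.5 and 622 against 359 and 400 CPM (-0.78, -1.27 to -0.28, adjusted p = 0.329). In each of these the groups did not overlap. Ces2c passed with no filter on low counts (adjusted p = 1.06e-06) and at a Leiden resolution of 2 (0.0464). It also passed without Lats-deleted library 1 or 2, fits that leave 1 sample in that arm. Sult1d1 (0.00876) and Ugt2b5 (0.0454) passed with no filter alone. Over the alternatives the adjusted p of each of the 3 reached 1.0. Gstt3 ran the other way, at 77.8 and 92.4 against 137 and 200 CPM (0.90, 0.15 to 1.65, adjusted p = 0.534). In all, 12 of the 36 members had an unadjusted p under 0.05, beside 7.17% of all genes, and the median log2 change of the 36 was -0.47, beside -0.01. Among these 12, Ces2b, Gstm4 and Ugt2b38 passed the filter in this class through the controls alone, each at 18.2 CPM in Lats-deleted library 2. The count and the median are therefore descriptions. The class was not made up alike: cluster 0 gave 40.0% and 48.8% of its cells in the controls and 60.5% and 57.1% in the Lats-deleted libraries, and cluster 6, the one rich in Ces2c and Gstk1, gave 18.0% and 13.6% against 23.7% and 4.76%. Within cluster 0 alone, the 23 cells of Lats-deleted library 1 had Ces2c at 1034 CPM (controls 1296 and 1297), Ces2e at 1487 (1606 and 1597), Gsta1 at 3749 (4545 and 3807), Gstm1 at 436 (838 and 528), Sult1d1 at 242 (618 and 588) and Ugt2b5 at 64.6 CPM (204.5 and 133). The enterocyte-like sums of the Lats-deleted libraries rest on 94614 and 55004 counts.

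**Figure D5:**
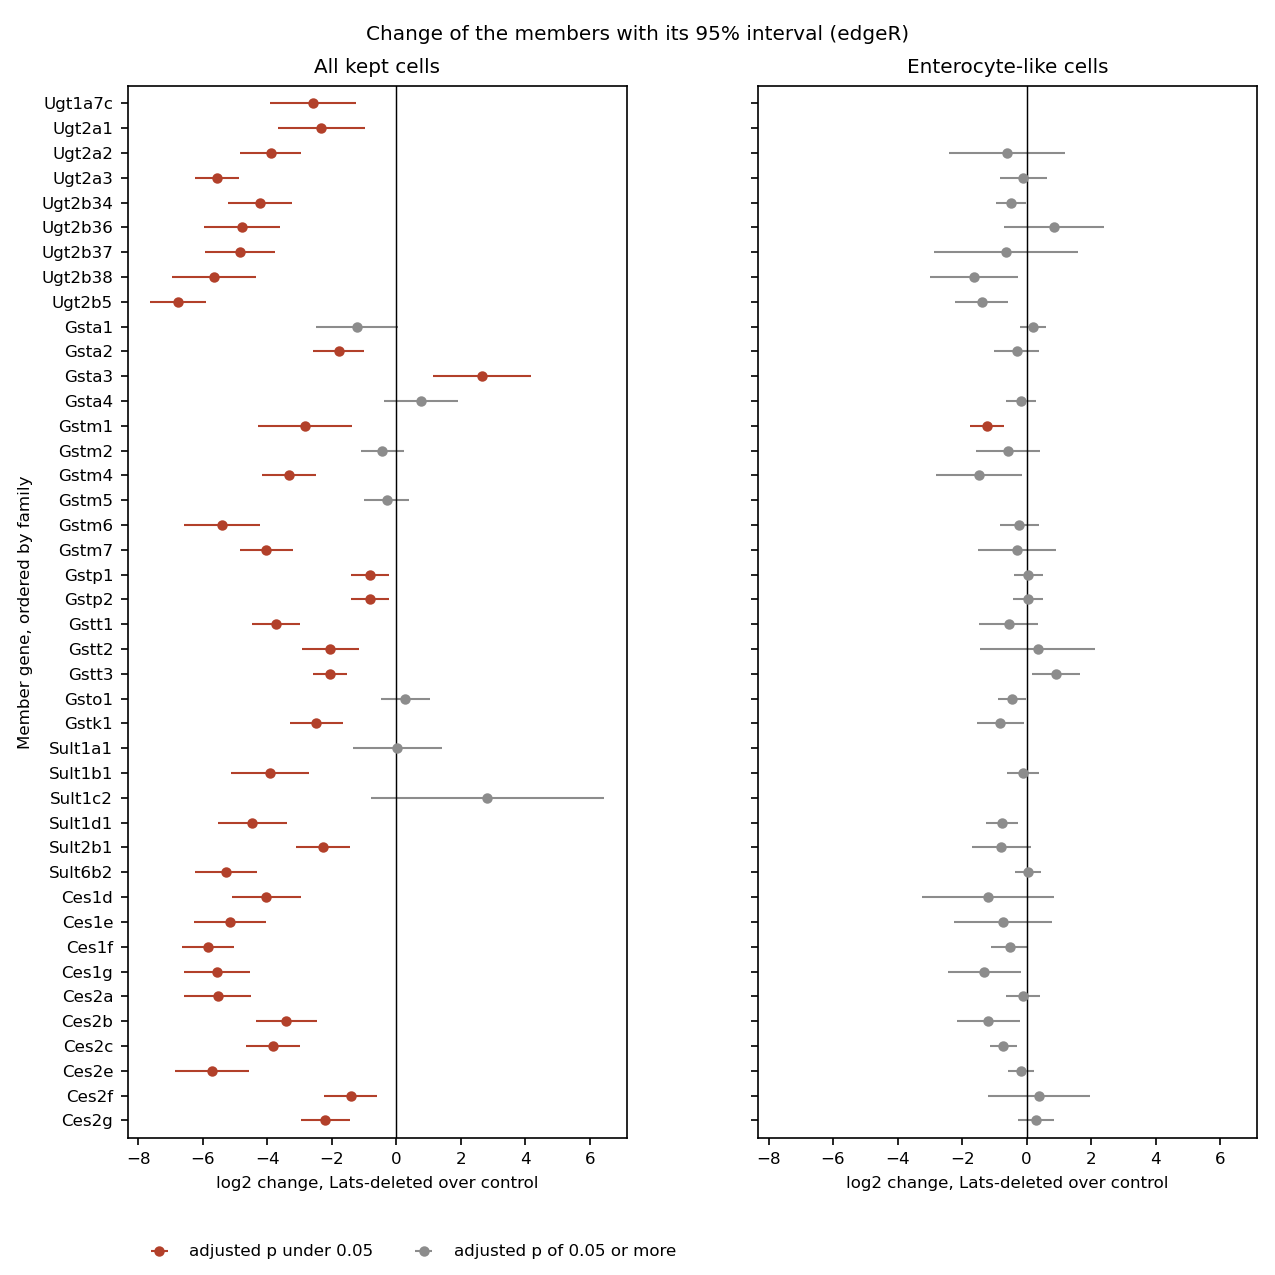
Log2 change of each tested member, Lats-deleted over control, with its 95% interval from edgeR, in all kept cells (left, 42 members) and in enterocyte-like cells (right, 36 members). Red marks an adjusted p under 0.05: most members on the left, from -6.76 upward, and Gstm1 alone on the right.

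Stem-like and cycling progenitor-like cells gave the other class found in both groups, at a finer clustering (Leiden resolution of 2), with 102 and 58 control cells and 33 and 367 Lats-deleted cells. The class rests on different clusters in the groups: the control cells were mostly in a stem-like cluster led by Cps1 and Aldh1b1 and the Lats-deleted cells in cycling clusters led by Cd59b or histone genes, most of them in library 2. In this class 12 members were tested, 4 were lower (10.9% of all 3887 genes were) and 1 was higher (11.0% of all genes were). The 4 called lower passed the filter on low counts in this class through the controls alone, and the 1 called higher through the Lats-deleted libraries alone. Such a member is low in a library of the other group by that choice, so these counts of calls are descriptions. Ces2e was at 466 and 146 CPM in the controls, against 0 and 1.81 CPM after Lats deletion, and it was called lower (adjusted p = 0.000128). Ces2c (487 and 55.5 against 5.62 and 12.1 CPM, adjusted p = 0.00299), Sult1d1 (305 and 90.2 against 16.9 and 14.5 CPM, adjusted p = 0.00135) and Ugt2b34 (248 and 201 against 11.2 and 34.4 CPM, adjusted p = 0.000832) were lower as well. The control levels of Ces2e, Ces2c and Ugt2b34 lay below those of low-count barcodes of the same libraries (744 and 967, 1450 and 1615, and 479 and 836 CPM), and the part of RNA from outside the cells was not tested. Gsta4 was the 1 member called higher, at 135 and 20.8 CPM against 343 and 1471 CPM (log2 change 3.31, SE 0.752, adjusted p = 0.0103, and 0.111 with DESeq2). The Sult1d1 call was lost without control library 1 (adjusted p = 0.199). With 1 library left out the log2 change ran from -8.89 to -6.48 for Ces2e and from 1.91 (without Lats-deleted library 2) to 5.35 (without control library 1) for Gsta4, and it was -4.34 for Ugt2b34 without Lats-deleted library 2.

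Whether the change differed between the classes was tested directly as a class by genotype term over 4865 genes. Of 29 members tested, 10 had a more positive change in enterocyte-like than in progenitor-like cells, where 4.91% of all genes did, and 1, Gsta4, a more negative one, where 3.95% did. The difference was 6.90 on the log2 scale for Ces2e (95% interval 5.32 to 8.48, adjusted p = 2.05e-06). For Gsta4 it was -3.66 (95% interval -4.91 to -2.41, adjusted p = 0.000257). The other 9 (Ces1f, Ces2a, Ces2c, Gstm6, Sult1b1, Sult1d1, Sult6b2, Ugt2a3 and Ugt2b34) differed by 2.17 to 4.86. Of these, Ces1f, Ces2a, Gstm6, Sult1b1, Sult6b2 and Ugt2a3 were too low for a test within the progenitor-like class. They passed the filter here through enterocyte-like cells alone, so the count of 10 is a description. Sult6b2 stood at 318 and 27.8 CPM in the control progenitor-like cells, below low-count barcodes of the same libraries (1069 and 1166 CPM). Without control library 1 the calls for Ces1f, Ces2c, Gstm6, Sult1b1, Sult1d1 and Sult6b2 were lost (adjusted p from 0.0867 to 0.455). The Sult1b1 call was also lost without control library 2 (adjusted p = 0.051) or Lats-deleted library 1 (0.173), and that for Ugt2a3 without Lats-deleted library 2 (0.0975). With 1 library left out the difference ran from 6.17 to 9.498 for Ces2e and from -5.14 to -2.83 for Gsta4.

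The wider pathway was read from 7 lists, in the sum of all kept cells and with the same background shares as the members. Some of these genes passed the filter on low counts through only 1 of the groups, so counts of calls are descriptions. Of the genes named below, Nr1h3, Abcc2 and Aadac passed it through the controls alone and Hmox1 through the Lats-deleted libraries alone. Cofactor supply had 1 higher and 4 lower of 13 tested genes (median log2 change -0.49). Papss2, which makes the sulfate donor PAPS, was at 3279 and 3328 CPM in the controls, against 215.5 and 154 CPM after Lats deletion (log2 change -4.16, adjusted p = 0.00024), and Ugdh, which makes UDP-glucuronic acid, at 876.5 and 566 against 121 and 101 CPM (-2.70, adjusted p = 0.00102). Of 11 xenobiotic and bile acid sensors, 7 were lower and none higher (median -1.95), led by the vitamin D receptor Vdr (log2 change -5.46, adjusted p = 0.000467) and the oxysterol receptor Nr1h3 (-3.74, adjusted p = 0.000631). Of 11 intestinal transcription factors, 6 were lower and 1 higher (median -0.95), with Cdx1 at -3.93 (adjusted p = 0.000202) and Hnf4g at -2.96 (adjusted p = 0.00162).

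Efflux transporters split, with 4 higher and 4 lower of 10 tested (median 0.61). The basolateral organic solute carrier Slc51a (log2 change -5.08, adjusted p = 0.000183) and the apical conjugate exporter Abcc2 (-5.28, adjusted p = 0.000433) were lower. Other conjugation enzymes had 7 lower and none higher of 13 (median -0.93), among them the microsomal transferase Mgst1 (-3.06, adjusted p = 0.000304) and the epoxide hydrolase Ephx2 (-4.08, adjusted p = 0.000319). Of 14 NRF2 target genes, 1 was higher and 3 were lower (median -0.45). Hmox1, which degrades heme, was at 4.25 and 4.39 against 86.7 and 67.9 CPM (log2 change 4.15, adjusted p = 0.000319), and the ferritin heavy chain Fth1 was lower (-3.42, adjusted p = 0.000582). Deconjugating enzymes and other esterases had 1 higher and 4 lower of 8 (median -1.03), with Bche (-4.97, adjusted p = 0.000183) and Aadac (-5.37, adjusted p = 0.000627) lower. The adjusted p-values of these lists come from the same edgeR fit.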

How the data were processed

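Single-cell RNA was measured in 4 inDrop v2 libraries, 2 control and 2 Lats-deleted. The deposited values are whole-number counts per gene and barcode, per the file headers and the values, and whether molecular identifiers were collapsed is not given in the sources used here. The genome build mm10 and the tools RSEM 1.3.0, Bowtie 1.1.1.1 and SAMtools 1.3.1 are named, with no role, per the submitters' processing notes.

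Cells were kept with at least 1000 counts, 300 genes and at most 30% mitochondrially encoded counts. They were clustered without the member genes (scanpy 1.11.5, leidenalg 0.10.2, Python 3.11.15; 2000 variable genes, 30 components, 15 neighbours, resolution 1) and named from 12 marker lists. No cluster was stem-like or cycling progenitor-like at that resolution, so this class is reported at resolution 2. Scrublet marked 3, 6, 0 and 7 cells as doublets, and none was removed. Counts were summed per library, and per library and class, and tested with edgeR 4.0.16 (R 4.3.3, quasi-likelihood, TMM, its filter on low counts) over all genes, with Benjamini-Hochberg adjustment and a threshold of 0.05. DESeq2 1.42.0 was an alternative. Kept counts per library ranged from 1228504 to 5826856.

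The members and lists were chosen with earlier results of these data known. Named were the 3 members of highest level in each family, those called higher, the 5 of smallest p among those called lower and up to 2 genes per pathway list. Other members named with values (such as Sult1c2, Sult1a1, Gstm5, Gstm7, Ces1d, Ces1e, Ces2b, Ces2f, Ces2g, Ugt2a1 and Ugt2b38) were chosen after their values were seen. 1 gene is not reported here. The statistics were tested on simulated data.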

Additional observations from a re-analysis of the deposited data

Results flagged for a closer look

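The change between Lats-deleted and control libraries differed between enterocyte-like and progenitor-like cells for 11 members, by a class by genotype term in edgeR's quasi-likelihood test. The difference on the log2 scale was 6.901 for Ces2e (adjusted p = 2.05e-06), 4.703 for Ces2a (0.000329) and -3.658 for Gsta4 (0.000257), and these 3 calls held in every alternative run. It was 4.856 for Sult6b2 (adjusted p = 0.000847), 4.657 for Gstm6 (0.00179), 4.355 for Ces1f (0.0019) and 3.317 for Ces2c (0.00299). Without control library 1 those 4 calls were lost (adjusted p = 0.263, 0.0867, 0.0867 and 0.396). It was 4.593 for Ugt2a3 (adjusted p = 0.00265, and 0.0975 without Lats-deleted library 2) and 2.434 for Ugt2b34 (0.00359, and 0.18 with no filter on low counts). It was 2.695 for Sult1d1 (adjusted p = 0.00613, and 0.278 without control library 1) and 2.174 for Sult1b1 (0.0445, lost in 4 alternatives with adjusted p up to 0.623).

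The progenitor-like class rests on different clusters in the 2 groups, and 367 of its Lats-deleted cells came from library 2 against 33 from library 1. Ces1f, Ces2a, Gstm6, Sult1b1, Sult6b2 and Ugt2a3 passed the filter of the class by genotype test through enterocyte-like cells alone, so their calls are descriptions. Control progenitor-like levels of Ces2e, Ces2c, Ugt2b34 and Sult6b2 lay below those of low-count barcodes, and the part of RNA from outside the cells was not tested.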

How the results depend on the processing

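In all kept cells 35 members were called, where 30.8% of all genes tested were. Under the alternatives that kept all libraries 33 to 37 members were called, where 18.1% to 34.9% of all genes were. The count was smaller without either control library and larger without Lats-deleted library 1, and the share of all genes called moved the same way. Of the 35, 24 were called in all 12 alternatives. Leaving out a library leaves an arm with 1 sample, which is assumed to vary like the other group. In enterocyte-like cells the count of 1 (0.187% of all genes were called) was 0 with DESeq2 (0.0679%). It was 4 with no filter on low counts (0.3%) and 2 at resolution 2 (0.403%), and it was not stable with 1 library left out. In progenitor-like cells the count of 5 (22.0% of all genes) was 19 with no filter (4.68%) and 11 with cells named by marker score (17.7%). It was the same or larger with 1 library left out. The class by genotype count of 11 was 6 to 13 with 1 library left out, 6 being without control library 1. The summed Gstt level changed by -2.11 on the log2 scale as a mean of each cell's CPM, beside -2.33. The cause of these shifts was not tested.

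A fit with the replicate number as a block gave 35 members in all kept cells, where 33.1% of all genes were called. It gave 1 in enterocyte-like cells (0.272%) and 5 in progenitor-like cells (21.4%). Same-numbered libraries did not deviate together (correlations 0.0471, -0.0226 and 0.0127), so the numbers are not taken to pair samples. Enterocyte-like cells named by marker score (19 in the smallest library) or with at least 2000 counts (10) were not run. The enterocyte-like sums of the Lats-deleted libraries rest on 38 and 21 cells.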
